A study of Mus musculus with 6 samples.

Results

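Tnfsf11 and Sema4d encode a pair of signals exchanged between bone-forming and bone-resorbing cells, RANKL and semaphorin 4D. Both were taken by name from a table of 1285 genes that the authors deposited, so they are 2 of 1285, and they were chosen by their group means and p in that table, which were known beforehand. The RNA came from the bone marrow of mice, from sorted mesenchymal stem and progenitor cells (MSPCs), stromal cells that support blood stem cells and give rise to osteoblasts. There were 3 libraries labelled Control and 3 labelled Snai2-/-, from littermates aged 8 weeks. Snai2 encodes Slug, a zinc-finger repressor of transcription. In both groups, 2000 cells per library were sorted for a green Nes-GFP reporter and against CD45, Ter119 and CD31, which mark leukocytes, erythroid cells and endothelium. Both groups therefore carried the Nes-GFP reporter. The labels do not give the strain, what the control genotype was beyond its name, or whether each library came from 1 animal. For each gene the table holds 1 mean per group on the authors' normalized scale, the ratio of these means, a p, and a false discovery rate (FDR), which is the p adjusted by a step-up method over all genes tested. It contains only genes with an unadjusted p below 0.05. The single libraries, their depth and their spread were not analysed here, so the means stand without an error, and whether the libraries of the groups overlapped was not examined.

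RANKL is a cytokine of the TNF family, made by stromal cells, osteoblasts, osteocytes and activated T cells. It binds the receptor RANK on precursors of osteoclasts and, together with the cytokine M-CSF, drives them to become the cells that resorb bone, while the secreted decoy receptor osteoprotegerin captures it. Semaphorin 4D, also called CD100, is a transmembrane semaphorin that can be shed from the cell surface. It is abundant on T cells, is made by osteoclasts, and acts through the receptor plexin-B1 on osteoblasts, where it restrains bone formation.

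Tnfsf11 (ENSMUSG00000022015.8) lies on the minus strand of GRCm38 chromosome 14, from 78277445 to 78308043, and has 1 annotated transcript of 5 exons. Sema4d (ENSMUSG00000021451.16) lies on the minus strand of chromosome 13, from 51685529 to 51793747, and has 14 annotated transcripts, 4 of them coding. The deposited value is 1 number per gene, so these transcripts, and the membrane-bound and shed forms of either protein, were not told apart. Snai2 itself lies on chromosome 16, so neither gene shares a chromosome with the targeted locus. The microRNA model Gm23566, on the opposite strand within Sema4d, was the 1 annotated gene found to overlap either of them.

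Because the disrupted gene encodes a repressor of the Snail family, whose members bind the E-box CAGGTG, the bases before a transcription start of each gene are shown. The sequences are 250 bases upstream of a RefSeq start on GRCm38.p6, written 5′ to 3′ on the minus strand, with each E-box (CANNTG, which reads the same on both strands) in capitals. The Tnfsf11 window is chr14:78308044-78308293 and ends at the start shared by RefSeq and the GENCODE transcript. RefSeq gives Sema4d 3 starts. The window shown, chr13:51739447-51739696, is the one that holds no annotated Sema4d exon, and its start lies 4683 bases from the nearest GENCODE start.
Tnfsf11: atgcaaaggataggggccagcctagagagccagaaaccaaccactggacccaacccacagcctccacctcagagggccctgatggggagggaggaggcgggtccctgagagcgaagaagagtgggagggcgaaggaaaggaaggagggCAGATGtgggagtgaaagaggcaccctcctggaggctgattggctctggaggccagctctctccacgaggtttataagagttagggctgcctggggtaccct
Sema4d: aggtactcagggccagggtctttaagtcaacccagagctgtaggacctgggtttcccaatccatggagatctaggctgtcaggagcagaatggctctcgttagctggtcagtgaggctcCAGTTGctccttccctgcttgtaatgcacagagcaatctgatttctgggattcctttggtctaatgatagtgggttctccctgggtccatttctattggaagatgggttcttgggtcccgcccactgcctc
Each of these windows held 1 E-box, CAGATG in Tnfsf11, beginning 102 bases before the start, and CAGTTG in Sema4d, beginning 131 bases before it. Of the other 2 Sema4d windows, 1 held CAGCTG and 1 held no E-box. CAGGTG, searched on both strands as CAGGTG and CACCTG and itself a form of CANNTG, was found in none of the 4 windows. For Sema4d these windows leave out the GENCODE starts of the transcripts with 2583 coding bases, at 51734763, 51793673 and 51793747. The bases before those starts were not searched, so whether they hold a CAGGTG is not known here. Among 32817 RefSeq promoter windows of the same length, 66.2% held a CANNTG and 17.2% a CAGGTG. These matches describe letters in a window of 250 bases and say nothing about binding.

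The comparison asks how the transcriptome of these niche cells differs without Snai2. For Snai2, the authors' deposited table gives 9.20 in the Snai2-/- group against 636 in control, the direction its labels give. Its FDR column implies that 16718 genes were tested, so the table holds 7.69% of them, 3.77% higher and 3.91% lower in the Snai2-/- group. In the authors' deposited table none passed FDR 0.05 (0%), while all 1285 had an unadjusted p below 0.05. No other tool could be run on group means. Snai2 had the lowest FDR there, 0.0758, so even the targeted gene missed this limit. Tnfsf11 and Sema4d belong to the 3.77%, and since this contrast is how they were chosen, nothing is read from that. Of 12 MSPC markers 1 was in the table (8.33%, near the 7.69% of all genes tested). It was Ebf1, which encodes a transcription factor used by marrow stroma and by B cells. The labelled identity of the cells could therefore not be checked by level.

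In the authors' deposited table, the group mean of Sema4d was 28.3 without Snai2 against 6.12 in control, 4.62 times as high (log2 ratio 2.21). The transcript for semaphorin 4D was therefore several times more abundant on average without Snai2, from a low control level. Sema4d's p in the authors' deposited table, 7.48e-05 before adjustment, ranked 4 of 1285, and 3 among the 631 genes with a higher mean in Snai2-/- cells. The FDR that the authors' deposited table gives it, 0.199, did not pass 0.05. Across 16718 genes 1.25 would have a p that small by chance if p were uniform. Since Sema4d was chosen by this p, the expectation lends it no weight. With 0.1, 1 and 10 added to both means, the log2 ratio of Sema4d was 2.19, 2.04 and 1.25. The added 10 is larger than the control mean of 6.12, so a smaller ratio there follows from the low control level.

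In the authors' deposited table, the group mean of Tnfsf11 was 201 without Snai2 against 101 in control, 1.99 times as high (log2 ratio 0.99). The RANKL transcript was thus higher on average without Snai2, by a smaller factor than Sema4d. For this difference the authors' deposited table gives p = 0.0144 before adjustment, rank 496 of 1285, and FDR = 0.484, which did not pass 0.05. At that p 241 of the 16718 genes would be expected by chance if p were uniform, against 496 observed. These counts concern all genes, and since Tnfsf11 was chosen by its p, nothing about it is read from them. Adding 10 to both means left the log2 ratio at 0.92.

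Both genes thus had higher means without Snai2, and neither passed the FDR. The ratio of Sema4d exceeded that of Tnfsf11, and whether they differ beyond the spread of the libraries could not be tested on group means. Among the 631 genes higher in the Snai2-/- group, whose median ratio was 2.28, 141 (22.3%) had a larger ratio than Sema4d and 356 (56.4%) a larger one than Tnfsf11, by the authors' deposited table. The median log2 ratio of all 1285 genes was -0.36, and relative to it Sema4d stood at 2.56 and Tnfsf11 at 1.35. Since only genes with an unadjusted p below 0.05 are included, this median follows from how many fell on each side, 631 higher and 654 lower. It is no baseline for all genes tested, so nothing is read from the centred values. The means of the pair were not set against each other as levels, because it is not given whether the authors' scale corrects for transcript length.

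**Figure D1:**
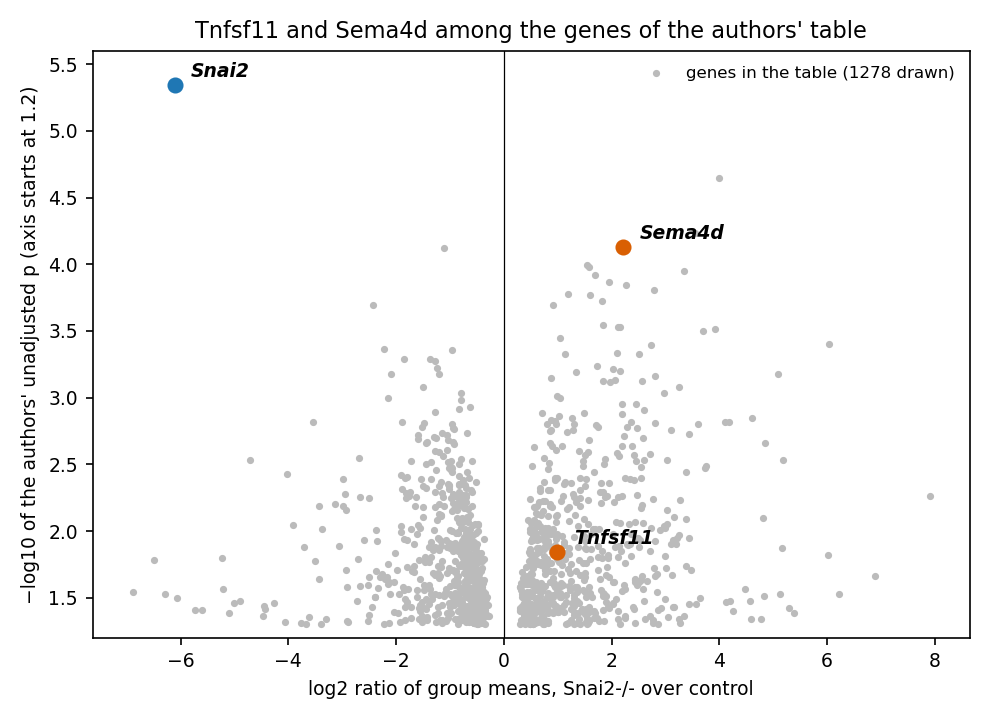
Each point is 1 gene of the table, with the log2 ratio of the group means (Snai2-/- over control) on the horizontal axis and −log10 of the authors' unadjusted p on the vertical axis, which starts at 1.2; 1278 genes are drawn and 7 with 1 mean at a floor value are left out. Sema4d (log2 ratio 2.21) stands near the top of the higher genes, while Tnfsf11 (0.99) lies within the dense part of the cloud, and Snai2 is at the upper left.

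The other genes of the RANKL system that were examined had no row in the table. Of 12 genes of this system, 1 was present, Tnfsf11 itself. The receptor gene Tnfrsf11a (RANK), the decoy receptor gene Tnfrsf11b (osteoprotegerin), the second receptor gene Lgr4, the M-CSF gene Csf1 and the sheddase genes Mmp14, Adam10 and Adam17 either were not tested or had a p above the table's limit of 0.05, and these cases cannot be told apart. A ratio of RANKL to osteoprotegerin message, the usual measure of the balance between them, could therefore not be formed. Among 18 ligand genes of the TNF superfamily, Tnfsf11 was also the only one in the table. Tnfsf11 counts in both lists because it was chosen for its value, so its presence there is no result.

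Of 27 TNF receptor superfamily genes 3 were in the table (11.1%, near the 7.69% of all genes tested), 2 higher and 1 lower in Snai2-/- cells. Their median log2 ratio was 0.77. None of the 3 passed the FDR. For Tnfrsf12a, the receptor of the cytokine TWEAK, the authors' deposited table gives 14.4 without Snai2 against 8.46 in control, a quotient of 1.71. For Tnfrsf10b, a death receptor for TRAIL, it was the reverse, with 1.39 without Snai2 against 3.25 in control by the authors' deposited table, a quotient of 0.429. Tnfrsf23, a decoy receptor for TRAIL, stood at 3.63 against 1.35 in the authors' deposited table, 2.69 times as high. Tnfrsf23 has a close paralog, Tnfrsf22, with which reads could be shared, so its value is less certain. A share this near that of all genes is no result about the receptor family.

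Next came 26 genes that bear on Tnfsf11 in stromal cells, hormone and cytokine receptors, prostaglandin enzymes and transcription factors. Of these 6 were in the table (23.1%, against 7.69% of all genes tested), 3 higher and 3 lower, where 3.77% of all genes were higher and 3.91% lower. Earlier results of these data were known when the list was drawn up, so no excess is read from this share. The median log2 ratio of the 6, 0.00215, is the midpoint between Ctnnb1 (0.43) and Nr3c1 (-0.43), and none of the 6 lay near it. None passed the FDR, and the authors' deposited table gives them FDR values from 0.269 to 0.614.

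Among the higher regulators, Vdr, the nuclear receptor for active vitamin D, a known inducer of RANKL in stroma, stood at 304 without Snai2 against 70.3 in control in the authors' deposited table, 4.32 times as high. Il6, a cytokine that can act on stroma to raise RANKL, stood at 13.5 against 3.50 in the authors' deposited table, 3.85 times as high. Ctnnb1, which encodes beta-catenin, the effector of Wnt signalling, differed least, at 358 against 265 in the authors' deposited table, 1.35 times as high. Vdr had the smallest p of these 3, for which the authors' deposited table gives 0.00552 before adjustment and an FDR of 0.385.

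Among the lower regulators, Ptges, an enzyme that makes prostaglandin E2, an inducer of RANKL, stood at 6.33 without Snai2 against 23.0 in control in the authors' deposited table, a quotient of 0.276. Its p in the authors' deposited table, 0.000512 before adjustment, was the smallest of the 6 regulators, with FDR = 0.269. Nr3c1, the glucocorticoid receptor, stood at 75.6 against 102 in the authors' deposited table, a quotient of 0.743. Il11ra1, a receptor for the cytokine IL-11, stood at 31.4 against 42.5 in the authors' deposited table, a quotient of 0.738, and reads could be shared with its near-identical copies. The receptor gene Pth1r, the gp130 gene Il6st, Stat3 and Runx2, which also bear on Tnfsf11, had no row in the table.

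Of the 16 partners of semaphorin 4D examined, 2 were in the table (12.5%, near the 7.69% of all genes tested), both with lower means in the Snai2-/- group (3.91% of all genes). Their median log2 ratio was -0.60, neither passed the FDR, and no result about the pathway is read from 2 genes. Erbb2, a receptor tyrosine kinase that associates with plexin-B1, stood at 23.3 without Snai2 against 36.5 in control in the authors' deposited table, a quotient of 0.639 (FDR 0.522). Arhgef11, an exchange factor that couples plexin-B1 to the GTPase RhoA, stood at 21.0 against 30.8 in the authors' deposited table, a quotient of 0.681 (FDR 0.546). The receptor genes Plxnb1, Plxnb2 and Cd72, the co-receptor gene Met and Rhoa had no row, and 0 of 11 plexin and neuropilin genes were in the table.

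Within the semaphorin family 2 of 19 genes other than Sema4d were in the table (10.5%, near the 7.69% of all genes tested), 1 higher and 1 lower. Sema4d was chosen for its value and is not counted. Sema3a, a secreted semaphorin known to hold back osteoclast formation and favour bone formation, stood at 8.12 without Snai2 against 1.08 in control in the authors' deposited table, 7.50 times as high. Its p there was 0.00983 before adjustment, and the authors' deposited table gives FDR = 0.454. Sema7a, a membrane-anchored semaphorin, stood at 13.7 against 25.5 in the authors' deposited table, a quotient of 0.538 (FDR 0.53). The 2 semaphorins with higher means, Sema4d and Sema3a, are known for opposing effects on bone formation.

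Of 23 other factors that pass between bone cells 5 were in the table (21.7%, against 7.69% of all genes tested), 3 higher and 2 lower. This list was drawn up with earlier results of these data known and shares Sema3a with the semaphorin list, so no excess is read from the share. The median log2 ratio of the 5 was 0.74. Besides Sema3a, Spns2, the exporter of sphingosine 1-phosphate, stood at 10.3 without Snai2 against 2.24 in control in the authors' deposited table, 4.58 times as high (FDR 0.322). Efnb2, which encodes the ligand ephrin-B2, stood at 3.40 against 2.03 in the authors' deposited table, 1.67 times as high (FDR 0.649).

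Complement C3 stood at 232 without Snai2 against 1254 in control in the authors' deposited table, a quotient of 0.185 (FDR 0.199). Ccl2, a chemokine that draws monocytes, stood at 52.1 against 97.6 in the authors' deposited table, a quotient of 0.534 (FDR 0.596). None of the 5 coupling genes passed an FDR of 0.05, and the p that the authors' deposited table gives Efnb2 before adjustment, 0.0493, is close to the limit of the table.

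**Figure D2:**
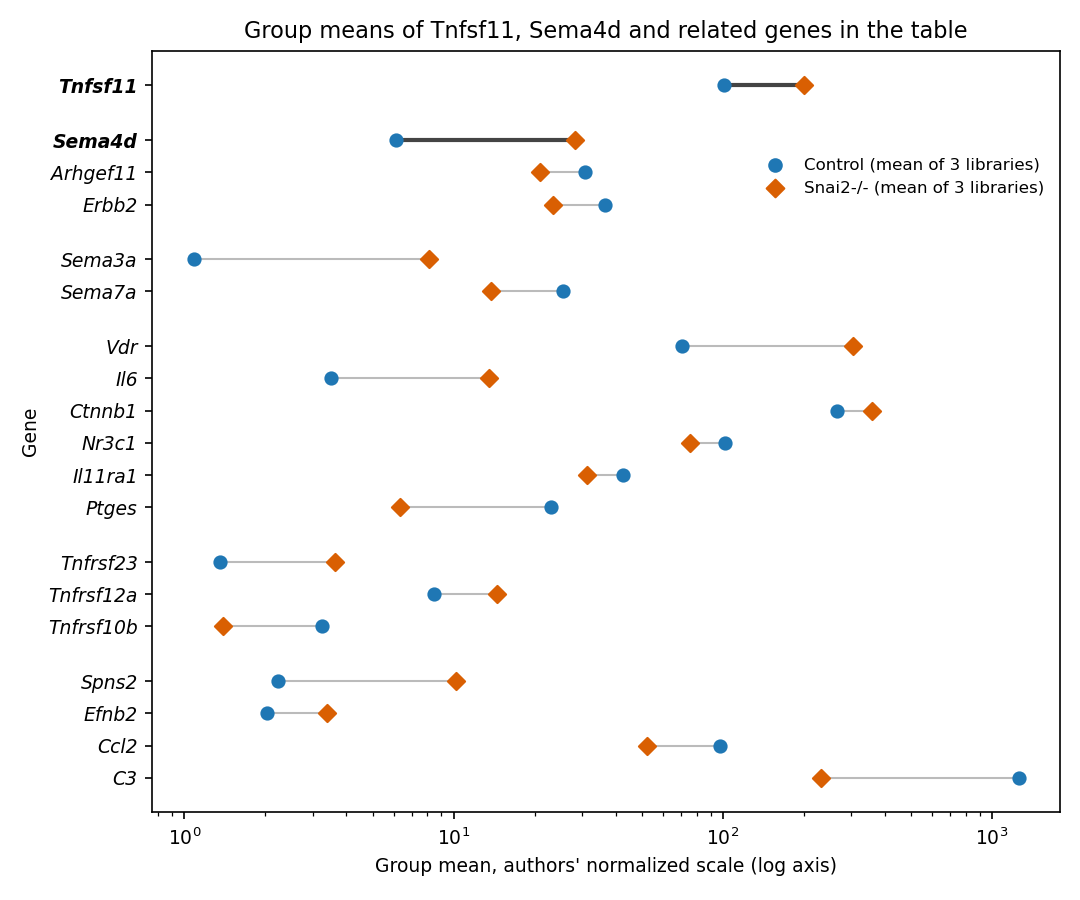
Group means of control (circles) and Snai2-/- cells (diamonds) on the authors' normalized scale, on a log axis, for Tnfsf11, Sema4d and the genes in the table from the 6 lists of the RANKL and semaphorin 4D systems and of coupling factors; each mean is over 3 libraries and has no error bar. Tnfsf11 goes from 101 to 201 and Sema4d from 6.12 to 28.3, Erbb2 and Arhgef11 are lower in Snai2-/- cells, and C3 goes from 1254 to 232.

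Markers of the cells that make or receive these signals were read from the same table. Of 15 osteoclast markers, among them Acp5, Ctsk and Calcr, 0 were in the table (0%, against 7.69% of all genes tested). No osteoclast value could therefore be set beside that of Sema4d. Of 14 B and T lymphocyte markers 1 was in the table (7.14%, near the 7.69% of all genes tested). It was Ebf1, which stroma also expresses, and its quotient of Snai2-/- over control was 0.58 in the authors' deposited table. Counts this small are no result about osteoclasts or lymphocytes. The T cell genes Cd3d, Cd3e, Cd3g, Cd4 and Cd8a had no row. The pan-leukocyte gene Ptprc, which encodes the sort marker CD45, had no row either.

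Of 18 pan-leukocyte and myeloid markers 7 were in the table (38.9%, against 7.69% of all genes tested), and these 7 had higher means in the Snai2-/- group (3.77% of all genes). The other 11 have no known direction, and the list was drawn up with earlier results of these data known. By the authors' deposited table the 7 were 2.95 to 10.4 times as high, with a median log2 ratio of 2.43. The 7 were Cd48, Ly6g, Ngp, S100a9, Ltf, Camp and Lcn2, and their means summed to 733 in Snai2-/- and 169 in control cells. None passed the FDR, and their part in the values of Sema4d and Tnfsf11 was not tested. Of 15 erythroid, megakaryocyte and endothelial markers 3 were in the table (20%, against 7.69% of all genes tested), with Car1 and Flt4 higher and Vwf lower in Snai2-/- cells. Car1 stood at 137 without Snai2 against 45.7 in control in the authors' deposited table, and Flt4 at 6.85 against 3.28. Vwf stood at 1.38 against 23.0 in the authors' deposited table. The means of the 3 summed to 145 and 72.0, most of it Car1, so the sum hides the lower Vwf.

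Osteoblasts and osteocytes, which are among the cells that make RANKL, were read by 16 markers. Of these 8 were in the table (50%, against 7.69% of all genes tested), 7 higher (3.77% of all genes) and 1 lower, and the other 8 have no known direction. Again the list was drawn up with earlier results of these data known. The median log2 ratio of the 8 in the table was 2.57. Their means summed to 24133 in Snai2-/- and 6052 in control cells, most of it Col1a1 and Spp1. Dmp1 and Ifitm5, genes of mineralizing cells, were 8.62 and 8.17 times as high in the authors' deposited table, and Phex, an osteocyte and osteoblast gene that regulates phosphate, had a quotient of 0.413. The other higher markers were Alpl, Col1a1, Smpd3, Pdpn and Spp1, and since the title of the study names Spp1, its direction is not independent evidence. None of the 8 passed the FDR, and Sost, Mepe, Bglap and Runx2 had no row. In sorted cells read in bulk, more cells of a type and more RNA per cell cannot be told apart, and the part of these markers in the values of Tnfsf11 and Sema4d was not tested.

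**Figure D3:**
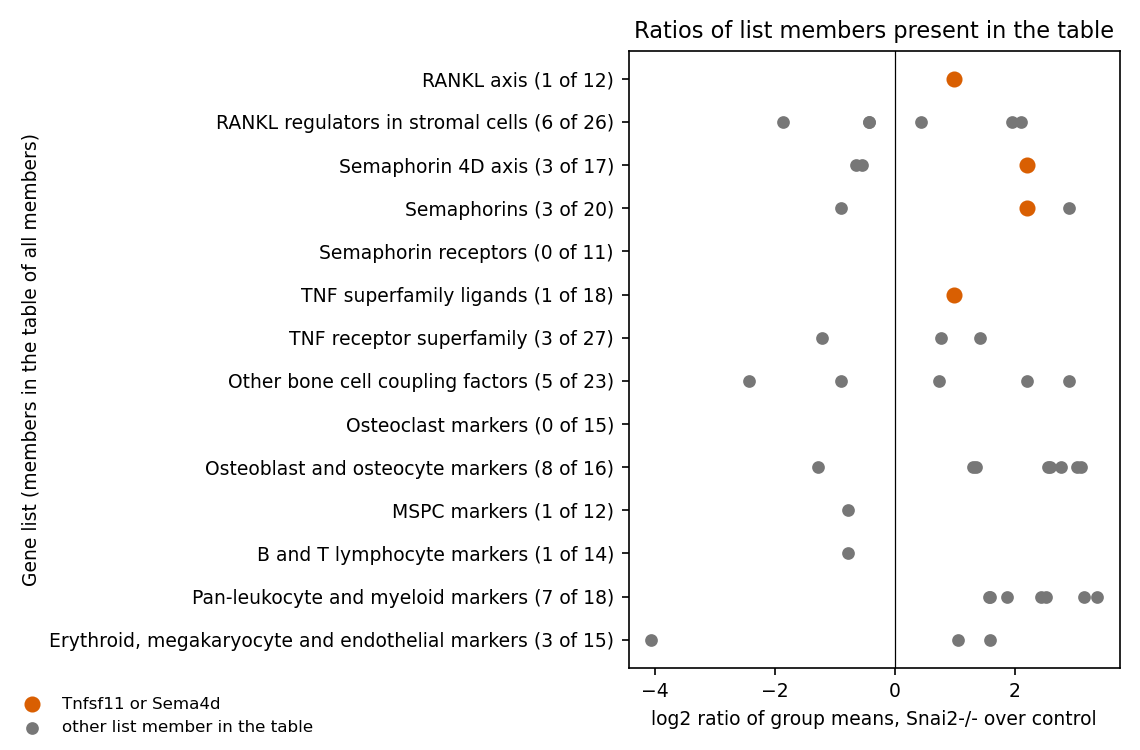
Each point is the log2 ratio of group means (Snai2-/- over control) of 1 list member in the table, by list, with the number in the table and the size of the list in parentheses; Tnfsf11 and Sema4d are the larger points. The RANKL list holds only Tnfsf11 and the osteoclast and semaphorin receptor lists are empty. The 7 pan-leukocyte and myeloid markers and 7 of 8 osteoblast and osteocyte markers lie to the right of 0.

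The genes whose pair of group means lay closest to each of the pair were found by distance on the log2 scale over the 2 groups, list members and predicted models aside. For Tnfsf11 they were Axl, a receptor tyrosine kinase, Mt1, a metallothionein, and Cdkn1a, an inhibitor of the cell cycle, at distances of 0.178, 0.238 and 0.253. Axl stood at 223 without Snai2 against 108 in control in the authors' deposited table. For Sema4d they were Panx3, a pannexin channel of bone and cartilage cells, Usp2, a deubiquitinase, and Pttg1, which encodes securin, at distances of 0.146, 0.253 and 0.307. Panx3 stood at 27.5 against 6.75 in the authors' deposited table. With 2 group means per gene such nearness is a matter of level and ratio alone.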

How the data were processed

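Bulk RNA-seq of 3 Control and 3 Snai2-/- libraries was grouped by the sample titles. Libraries were made with SMART-Seq v4 and Nextera XT, per the labels' protocols, which amplify cDNA and do not mark strand. Trim Galore, HTSeq, edgeR 3.12.0 and mm10 are named, without roles, in the submitters' processing notes; no source used here gives the aligner or the annotation. Per the file headers, the authors deposited a p-value, a step-up FDR, a ratio, a signed fold change (here a score, the ratio or minus its reciprocal) and 2 group means. The means and the total are a normalized signal made by the authors, not a count: 0 of 1285 totals were whole, and in 1285 rows the total was 3 times the sum of the means within a relative 1e-06. The header's mutant and wildtype were taken to be the Snai2-/- and Control libraries.

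No model was fitted, since the design's fallback for group means applied, and the authors' p and FDR are quoted. The labels mention littermates but not 1 animal per library, so p may measure spread that is partly technical. Selection at p below 0.05 biases the folds in the table away from 1. The number tested was recovered as the largest FDR times rank over p, tested on simulated data (10 of 10 tables recovered), and matched the deposited FDR within 0.0225%. The pair of genes, the 14 lists (222 symbols, all annotated) and the tests were chosen with earlier results of these data known. The share of a list in the table counts all its symbols, tested or not, and is a description only. Values are given by a rule for the pair, Snai2, list members in the table and the 3 nearest genes by group means. List members without a row are named as absent, by choice. Epsti1, Gm23566 and Tnfrsf22 fall outside the rule. Positions, counted from 1, follow GENCODE M21 (GRCm38, that is mm10), and 1247 of 1285 symbols matched 1 gene. Sequences are RefSeq's, and both genes matched. Python 3.11.15, numpy 2.4.6, pandas 2.3.3 and matplotlib 3.10.9 were used. Depth per library is unknown.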

Additional observations from a re-analysis of the deposited data

How the results depend on the processing

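The alternatives that could be run on Tnfsf11 and Sema4d were pseudocounts of 0.1, 1 and 10, centring on the median of all genes in the table, and a Bonferroni adjustment over 16718 genes. Both genes kept a higher mean in Snai2-/- cells. The log2 ratio ranged from 0.92 to 1.35 for Tnfsf11 and from 1.25 to 2.56 for Sema4d. Both upper ends came from the centring, whose median is no baseline for all genes tested. Both genes had a Bonferroni p of 1. These alternatives reuse the same means and the authors' p, and Bonferroni cannot pass where the FDR fails, so they test neither the direction nor the side of the threshold. The count of 0 genes at FDR 0.05 became 1 at FDR 0.1 (Snai2), 22 at FDR 0.25 and 365 at an unadjusted p below 0.01. Sema4d was among the 22 and the 365, and Tnfsf11 was in neither. A minimum mean of 1 could only leave it at 0, since no FDR was recomputed. No paired analysis was possible because the file gives 1 mean per group, and leaving out each library was not run for the same reason, so whether 1 library decides either value was not tested.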

Other observations

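The surroundings of both genes on their chromosomes were read from the same table, with genes chosen after their values were seen. Within 1 Mb of Tnfsf11, 38 genes are annotated, 9 of them protein-coding, and 1 other was in the table. That gene was Epsti1, an interferon-induced gene, at a distance of 275 kb, for which the authors' deposited table gives 0.938 without Snai2 against 3.24 in control, a quotient of 0.289. Epsti1 thus had a lower mean where Tnfsf11 had a higher one, and the authors' deposited table gives it FDR = 0.52. Within 1 Mb of Sema4d, 28 genes are annotated, 10 of them protein-coding, and 0 others were in the table.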
